A study of Mus musculus with 2 samples.

Results

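Integrins and laminins, the receptors and ligands through which cells hold on to their basement membrane, were examined in neural crest cells of the embryonic heart with and without Adam19. The set was a fixed list of 37 gene symbols: 17 integrin alpha subunits, 8 integrin beta subunits, 10 laminin chains and the 2 nidogens. Each symbol was looked up among the transcript clusters (groups of probes along 1 transcript) that are annotated to exactly 1 gene. All 37 were found, each with 1 such cluster, among 19938 genes on the arrays. The rule itself reads no measured value, but the list was drawn up with earlier results of these data known.

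Both samples were tdTomato-positive cells sorted from C57BL/6 embryonic hearts at E14.5, and both carried Wnt1-Cre and 1 copy of the R26tdTomato reporter. The control was Adam19+/+; Wnt1-Cre; R26tdTomato/+ and the mutant was Adam19-/-; Wnt1-Cre; R26tdTomato/+. Wnt1-Cre switches the reporter on in the neural crest, so the sort collects all its descendants in the heart, whatever they have become. Each genotype was hybridised to 1 Mouse Gene 1.0 ST array (n = 1), and the sources used here do not say how many embryos went into it. With no replicate there is no error estimate and no test, and every difference below is that between these 2 samples.

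An integrin is a pair of 1 alpha and 1 beta chain that spans the membrane, binds matrix outside and links to actin inside. The alpha chain largely sets the ligand: laminins for alpha3, alpha6 and alpha7, collagens for alpha1, alpha2, alpha10 and alpha11, and the RGD tripeptide of fibronectin and its relatives for alpha5, alpha8 and alphav. Laminins are trimers of an alpha, a beta and a gamma chain, which nidogens tie to the collagen IV network. Smooth muscle of the great arteries, valve mesenchyme, Schwann cells and autonomic neurons, the cardiac derivatives of the neural crest, each make their own set of these receptors and chains.

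Values are log2 signals as the authors deposited them, and a difference is Adam19-/- minus Adam19+/+ on that scale. Signals of different genes come from different probes, so levels are set side by side only between the 2 arrays. A gene was taken as above the floor when its mean over both arrays exceeded 8.01, the median of all genes, which is a middle level and no limit of detection. This left 9969 genes and 24 of the 37 members. Their differences had a central 95% of -0.20 to 0.29 and a median of 0.04 over all 9969 genes. The median signal of the whole table was 7.49 and 7.52 on the 2 arrays. For 571 genes with several clusters above the floor, the differences from the 2 brightest lay a median of 0.05 apart and 0.24 at the 95th percentile, which reflects probes and not animals. Adam19 itself was at 11.62 in the Adam19+/+ and 9.77 in the Adam19-/- sample, a difference of -1.85 and the lowest of all 9969 genes, which has the direction of the labels.

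Of the 24 members above the floor, 3 were at least 1.2-fold lower in the Adam19-/- sample, against 1.05% of all genes above the floor, and none was at least 1.2-fold higher, against 3.76% of all genes. The 3 were Itga7, Itga8 and Itgb3, all receptor subunits. Of the members only Itga7 was past 1.5-fold, a size that 0.0802% of all genes reached in that direction and 0.1% in the other. With an offset of 32 on the linear scale its difference was -0.54, short of 1.5-fold. No member reached 2-fold, which 0.0301% of all genes did by being lower and 0% by being higher. By sign, 17 of the 24 lay below 0 and 7 above it, whereas 33.8% of all genes lay below 0 and 65.1% above. The median difference was -0.08 over the members, -0.11 over the 16 integrins and -0.07 over the 8 laminins and nidogens. Because all genes leaned towards higher values, the share below 0 depends on the scaling: with differences centred on a lowess curve it was 50% of all genes and 18 of 24 members. All differences are small, and 20 of the 24 members lay within the central 95% of genes in their own 1-unit band of signal. The 4 outside it, all below, were Itga7, Itgb3, Itga8 and Itga6. Itga6 was barely outside, at -0.1836 against a band limit of -0.1834. It lay within the -0.20 to 0.29 that holds the central 95% of all genes above the floor.

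**Figure D1:**
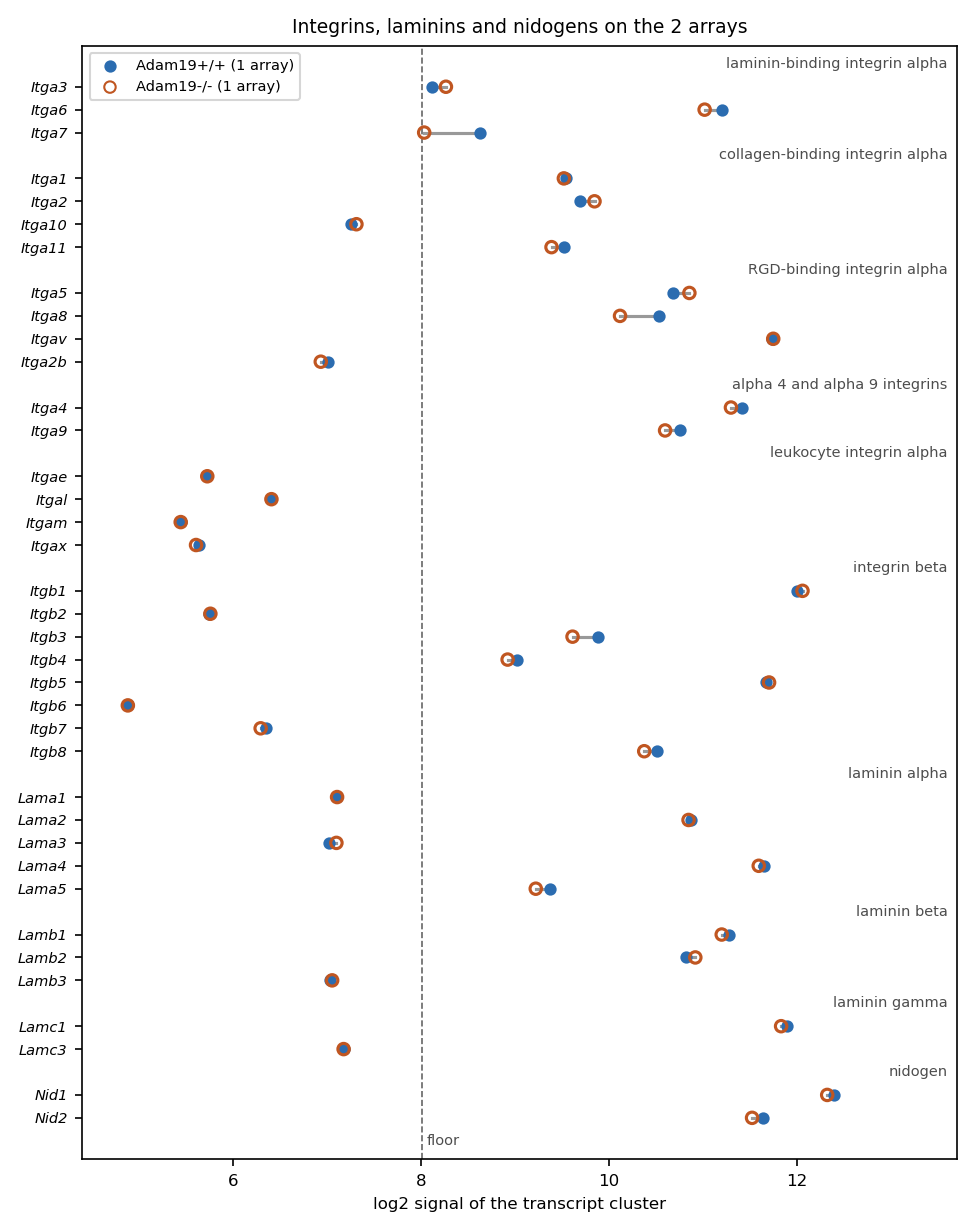
Log2 signal (horizontal axis) of each of the 37 genes, grouped by role, on the Adam19+/+ array (filled) and the Adam19-/- array (open), 1 array each, with the floor of 8.01 dashed. The widest gaps are those of Itga7, Itga8 and Itgb3, each with the Adam19-/- circle to the left. Distances between genes along the axis reflect probes as well as abundance.

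The laminin receptors differed among themselves. Itga7 encodes alpha7, the laminin-binding chain of skeletal, cardiac and vascular smooth muscle. It was at 8.63 in the Adam19+/+ and 8.04 in the Adam19-/- sample, a difference of -0.60 or 1.51-fold lower, the 8th lowest of 9969 genes. The Adam19-/- value lay just above the floor of 8.01. Itga6, the laminin receptor of Schwann cells, endothelium and epithelium, was at 11.20 and 11.02, a difference of -0.18 and the 290th lowest. Its epithelial and glial partner Itgb4 was at 9.02 and 8.92, a difference of -0.10. Itga3, which prefers the laminins that contain the alpha5 chain, went the other way, from 8.12 to 8.27, a difference of 0.15. The alpha chains that bind laminin therefore had no common sign.

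The RGD receptors held the second member past 1.2-fold. Itga8, the alpha chain of smooth muscle and of mesenchyme that binds nephronectin, was at 10.53 in the Adam19+/+ and 10.12 in the Adam19-/- sample. The difference of -0.41, or 1.33-fold lower, was the 25th lowest of 9969 genes. Itga5, the main fibronectin receptor chain, was at 10.68 and 10.85, a difference of 0.17 and the highest of any member. Itgav, which pairs with several beta chains, was at 11.74 and 11.75, a difference of 0.01. Itga2b, the platelet chain, was below the floor at 7.01 and 6.94.

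The part of RefSeq's promoter table that was used lists 24 of the 37 members. Itga8 had the largest difference of those listed, and the part of its listed window that lies outside the gene's annotated transcripts is printed 5′ to 3′ (GRCm38.p6, chr2:12301986-12302194, minus strand, 209 bases).
Itga8: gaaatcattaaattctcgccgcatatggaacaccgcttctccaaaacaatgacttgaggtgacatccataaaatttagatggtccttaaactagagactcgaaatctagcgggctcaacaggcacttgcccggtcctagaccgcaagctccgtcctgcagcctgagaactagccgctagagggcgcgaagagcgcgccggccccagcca
The CArG box, the element bound by serum response factor at many smooth muscle genes, was searched on both strands of the 250 bases before each listed start. It had no match before Itga8, so nothing is in capitals. The 24 members have 27 windows, because some have several listed starts. A match was found in 1 window each of 2 members, Lama2 and Itgb6. Among the 32851 windows in the part of the table that was used, 1.47% held one. A match is a string of letters and not a measured site, and no readout of promoters was part of the study.

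Among the beta chains, Itgb3 was the one past 1.2-fold. It encodes beta3, which pairs with alphav on vascular smooth muscle and endothelium and with the platelet alpha chain. It was at 9.89 in the Adam19+/+ and 9.61 in the Adam19-/- sample, a difference of -0.27 or 1.21-fold lower, the 93rd lowest of 9969 genes. Itgb3 lies on chromosome 11, as Adam19 does, with 1055 measured genes between them. Itgb8, which with alphav activates latent TGF-beta, was at 10.51 and 10.37, a difference of -0.13. Itgb1, the partner of most alpha chains, was at 11.996 and 12.057, a difference of 0.06, and Itgb5 was at 11.67 and 11.70, a difference of 0.03. Of the 5 beta genes above the floor, 3 were lower and 2 higher.

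**Figure D2:**
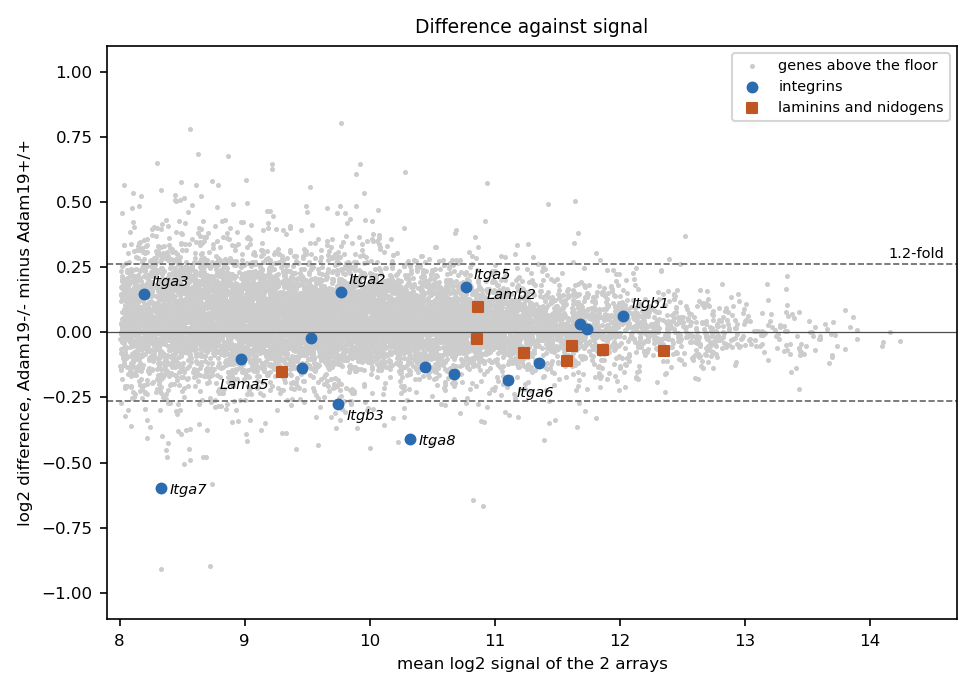
Log2 difference, Adam19-/- minus Adam19+/+ (vertical axis), against mean log2 signal of the 2 arrays for the genes above the floor (grey), the 16 integrins (circles) and the 8 laminins and nidogens (squares), with 1.2-fold dashed; 3 genes beyond 2-fold lower fall outside the axis. Itga7, Itga8 and Itgb3 lie below the lower dashed line and no member lies above the upper one.

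The collagen receptors and the alpha4 and alpha9 chains differed little. Itga1, a collagen IV receptor of smooth muscle, was at 9.54 and 9.52, a difference of -0.02. Itga2 was at 9.69 and 9.85, a difference of 0.15, and Itga11, a collagen I receptor of fibroblasts, was at 9.52 and 9.39, a difference of -0.14. Itga4, which binds VCAM-1 and fibronectin, was at 11.41 and 11.30, a difference of -0.12. Itga9, which binds tenascin-C among others, was at 10.76 and 10.60, a difference of -0.16. Itga10, the collagen receptor of cartilage, was below the floor, at 7.26 and 7.31.

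Set out as receptors, 15 of 23 known pairs had both subunit genes above the floor. Of the 11 that contain Itgb1, 7 had an alpha gene that was lower and 4 one that was higher, beside the 1 difference of 0.06 for Itgb1 that they all share. The alpha gene differed from Itgb1 by -0.66 for Itga7 and by -0.47 for Itga8. In the 4 alphav receptors Itgav differed by 0.01, beside -0.27 for Itgb3, -0.13 for Itgb8, 0.06 for Itgb1 and 0.03 for Itgb5. RNA of subunits does not measure the assembled receptor at the surface.

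**Figure D3:**
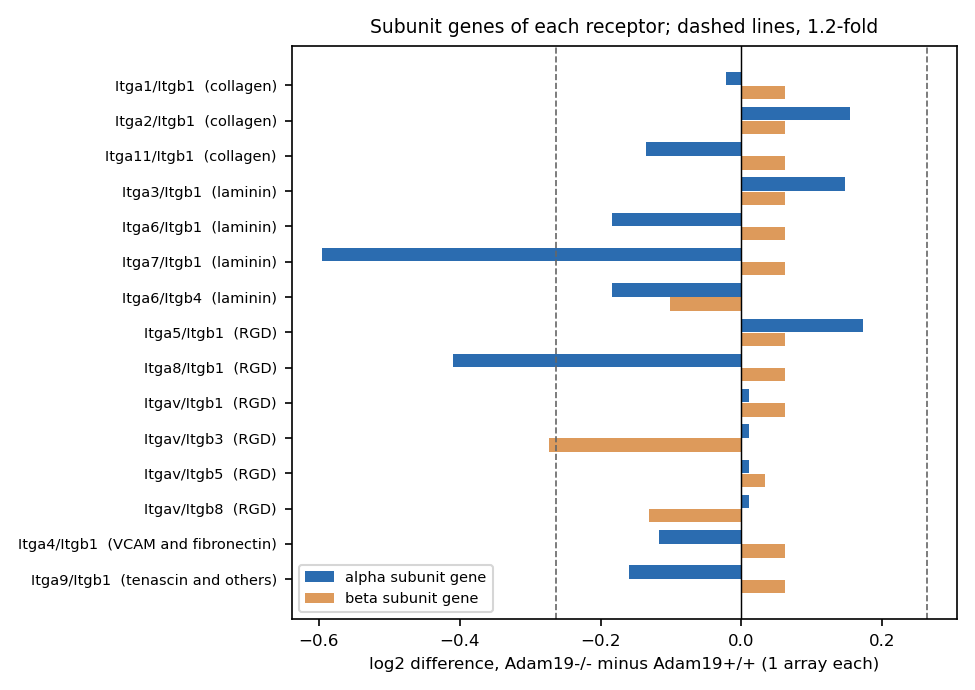
Log2 difference, Adam19-/- minus Adam19+/+ (horizontal axis), of the alpha and the beta subunit gene of each receptor whose 2 genes were above the floor, 1 array per genotype, with 1.2-fold dashed. The bars of Itga7 and Itga8 extend past the dashed line beside a short bar for Itgb1 at 0.06; the Itgb3 bar just passes it.

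The laminin chains and nidogens differed by no more than 0.16 in either direction. Lama2, the laminin alpha chain of muscle and Schwann cells, was at 10.87 and 10.85, and Lama4, that of vessels and mesenchyme, at 11.65 and 11.59, with differences of -0.03 and -0.05. Lama5, an alpha chain of artery and epithelium, had the largest difference of the chains, from 9.38 to 9.22, or -0.15. Lamb1 was at 11.28 and 11.20, a difference of -0.08, while its counterpart Lamb2 was at 10.82 and 10.92, a difference of 0.10 and the one above 0 among the 8 genes of this group above the floor. Lamc1, the gamma chain of most laminins, was at 11.90 and 11.83, a difference of -0.07. Nid1 was at 12.39 and 12.32 and Nid2 at 11.63 and 11.52, with differences of -0.07 and -0.11. Of 8 laminin trimers considered, 6 had all 3 chain genes above the floor. In each the alpha and gamma genes were slightly lower, and the beta gene was lower where it was Lamb1 and higher where it was Lamb2. All 6 share the same Lamc1 value and reuse the same alpha and beta genes, so they are not separate observations.

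The remaining 13 members were at or below the floor, and 6 of them had exactly the same value on both arrays, as did 27.3% of all genes there. The 6 were Itgae at 5.73, Itgal at 6.41, Itgam at 5.45, Itgb6 at 4.88, Lama1 at 7.11 and Lamc3 at 7.18. An identical value to every deposited digit is not a measured absence of change, and the sources used here do not say how it arose in the authors' processing. The other 7 were Itga10 and Itga2b, given above, Itgax at 5.64 and 5.61, Itgb2 at 5.75 and 5.76, Itgb7 at 6.35 and 6.30, Lama3 at 7.02 and 7.10, and Lamb3 at 7.03 and 7.06. None differed by more than 0.08. Itgal, Itgam and Itgax are alpha chains of leukocytes and Itgb2 is their shared beta chain. Of these 4, Itgal and Itgam are among the 6 with identical values, and Itgax and Itgb2 differed by -0.03 and 0.01. Each of 16 measured leukocyte markers had its higher signal in Adam19-/- cells, with a median of 0.25. Their summed linear signal was 2615 in the Adam19+/+ and 3389 in the Adam19-/- sample. Over all 19938 measured genes, 10303 lay above 0. Only 4 of the 16 markers on the leukocyte list were above the floor. Laptm5 at 0.68, C1qb at 0.65 and Fcer1g at 0.56 led that list.

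Some integrin ligands other than laminins were past 1.2-fold. Of 24 listed ligands 22 were measured, and 17 of them were above the floor. Of the 17, 2 were at least 1.2-fold higher and 1 lower, against 3.76% and 1.05% of all genes above the floor. By sign 8 lay above 0 and 9 below, with a median of -0.04, against 65.1% and 33.8% of all genes. Npnt, which encodes nephronectin, the ligand of alpha8 beta1, was at 9.42 and 9.90, a difference of 0.48 or 1.39-fold higher. In this receptor and ligand pair the 2 genes thus went opposite ways, Itga8 by -0.41 and Npnt by 0.48. Edil3, an RGD protein bound by alphav beta3 and alphav beta5, was at 9.519 and 10.003, a difference of 0.48 or 1.40-fold higher, beside -0.27 for Itgb3 and 0.03 for Itgb5. Ccn3, a matricellular ligand of several integrins, was at 11.61 and 11.26, a difference of -0.35 or 1.27-fold lower. Thbs2, a thrombospondin, had the next largest difference, -0.18.

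The familiar pairs around fibronectin and tenascin were closer. Fn1, fibronectin, was at 13.52 and 13.47, a difference of -0.05, beside 0.17 for Itga5. Vcam1 was at 9.97 and 10.14, a difference of 0.17, beside -0.12 for Itga4. Tnc, tenascin-C, was at 11.86 and 12.02, a difference of 0.16, beside -0.16 for Itga9. These pairs were chosen after their values had been seen, and every value was within the central 95% of all genes. Fibronectin is also bound by alpha4 and alpha8, whose genes were lower, by -0.12 and -0.41, as Fn1 was.

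Of 20 other genes of the basement membrane and its receptors, 13 were above the floor. Of these, 5 lay above 0 and 8 below, with a median of -0.06, against 65.1% and 33.8% of all genes above the floor. At least 1.2-fold lower were 1.05% of all genes, and 3.76% were higher by that much. The one past 1.2-fold was Bcam, the Lutheran glycoprotein, a receptor for laminins with the alpha5 chain, at 10.42 and 10.13, a difference of -0.29 or 1.22-fold lower. Its ligand gene Lama5 differed by -0.15. Sspn, sarcospan, differed by 0.14, Col4a1, a collagen IV chain, by -0.12 and Sgce, a sarcoglycan, by 0.11. Dag1, dystroglycan, the main laminin receptor outside the integrin family, was at 11.54 and 11.57, a difference of 0.03.

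None of the 26 genes of the integrin adhesion machinery above the floor passed 1.2-fold in either direction. Few genes do: of all genes above the floor 3.76% were higher and 1.05% lower by that much. Of the 26, 15 lay above 0, 10 below and 1 at exactly 0, with a median of 0.02. Of all genes above the floor 65.1% lay above 0 and 33.8% below. The largest differences were Cib1, which binds the tail of the platelet alpha chain, at 0.16, Tns1, tensin, at -0.15, Parva, a parvin that joins integrin-linked kinase, at -0.14, and Cd47, an integrin-associated membrane protein, at 0.13. Ilk itself was at 12.28 and 12.30, and Tln1, talin, which activates integrins from within, at 11.21 and 11.14.

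**Figure D4:**
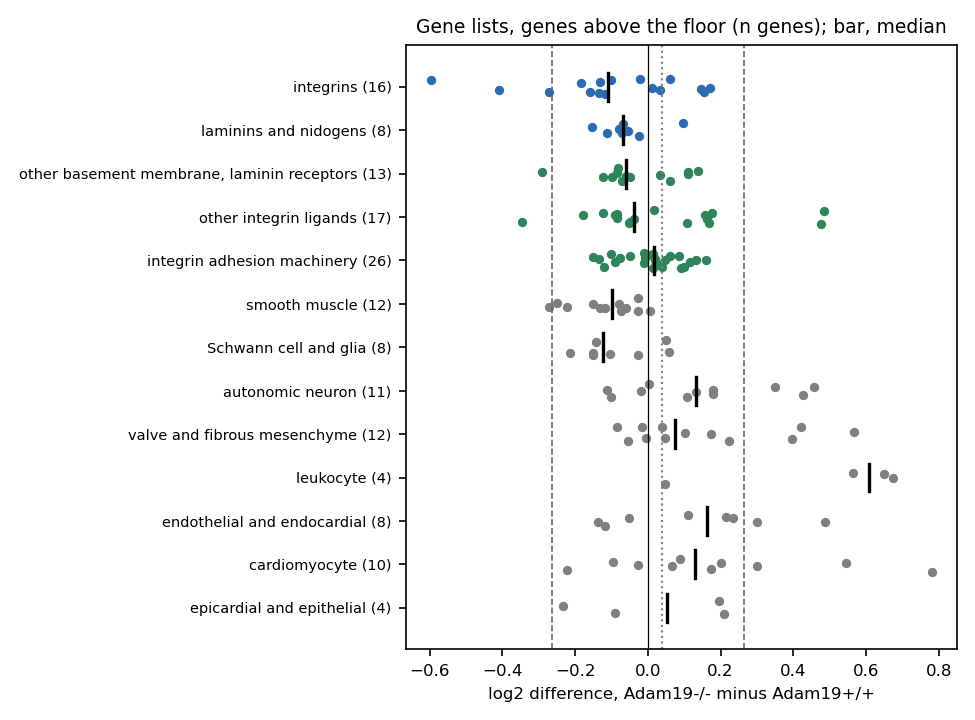
Log2 difference, Adam19-/- minus Adam19+/+ (horizontal axis), of every gene above the floor in the members (blue), the 3 lists of adhesion genes (green) and 8 lists of cell type markers (grey), with the median of each as a bar, 1.2-fold dashed and the median of all genes dotted. The medians of integrins (-0.11), smooth muscle (-0.10) and Schwann cell markers (-0.12) lie left of 0, and those of leukocyte (0.61), autonomic neuron (0.13) and endothelial (0.16) markers right of it.

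Among markers of neural crest derivatives, those of smooth muscle and glia were mostly lower in the Adam19-/- sample. Of those of autonomic neurons 8 of 11 were higher and of valve mesenchyme 8 of 12, near the 65.1% of all genes above the floor. All 12 smooth muscle markers were above the floor, and 11 were lower and 1 was higher in the Adam19-/- sample, with a median of -0.10 and a summed linear signal of 37246 against 34522. Kcnmb1 at -0.27, Lmod1 at -0.25 and Cald1 at -0.22 had the largest differences, and Acta2, smooth muscle actin, was at 13.74 and 13.62. Itga7 and Itga8, the members with the lowest differences, at -0.60 and -0.41, are both made by smooth muscle. Itga7 is also a gene of cardiac muscle and Itga8 of mesenchyme. Of the markers of these, given below, 11 of 14 and 8 of 12 were higher. Of 9 measured Schwann cell and glial markers 7 were lower, with a median of -0.11 and a summed signal of 19797 against 18414. Beside these counts, 33.8% of genes above the floor, and 6808 of all 19938 measured genes, lay below 0. Such sums weigh the brightest genes most, among the glial markers Fabp7 at 13.45 and 13.30. Sox10, which defines glial cells, differed by 0.05, Dhh by -0.22, Fabp7 by -0.15 and Mbp by -0.15. Itga6 differed by -0.18 and Itgb4 by -0.10. In sorted bulk cells, fewer cells of a type and less RNA per cell cannot be told apart. The part of either list in the integrin differences was not tested.

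For the other marker lists the counts below cover all measured markers, whether above the floor or not. Over all 19938 measured genes, 10303 lay above 0, 6808 below and 2827 at exactly 0. The autonomic neuron and valve mesenchyme markers were all above the floor, where 65.1% of genes lay above 0. Among 12 endothelial markers 7 lay above 0, 4 below and 1 at exactly 0; the median was 0.16 and a summed signal of 6308 against 6612, led by Nfatc1 at 0.49, Ramp2 at 0.30 and Pecam1 at 0.27. Of 14 cardiomyocyte markers 11 were higher, with a median of 0.16 and a sum of 10463 against 11193, led by Myl7 at 0.78, Pln at 0.54 and Myh6 at 0.39. All 5 measured platelet markers were below the floor, with a median of 0.03 and a sum of 627.2 against 648.1, beside -0.27 for Itgb3. Ppbp at 0.27, Pf4 at 0.13 and Gp5 at -0.10 had the largest differences. Of 11 autonomic neuron markers 8 were higher, with a median of 0.13 and a sum of 17919 against 19248, and Th at 0.46, Dbh at 0.43 and Gata3 at 0.35 were highest. Of 12 valve and fibrous mesenchyme markers 8 were higher, with a median of 0.07 and a sum of 54119 against 55463, led by Tcf21 at 0.57, Scx at 0.42 and Twist1 at 0.40. Epicardial and epithelial markers, 11 in all, had a median of 0.00, with 5 higher, 4 lower and 2 equal. Their sum was 2802 against 2995, in which the brightest of them, Tbx18 at 10.19 and 10.40, weighs most. Krt18 differed by -0.23, Cdh1 by 0.22 and Upk1b by -0.22. The part of these lists in the differences of the integrins was not tested either.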

How the data were processed

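RNA of 2 samples was measured on Affymetrix Mouse Gene 1.0 ST arrays, 1 per genotype. The values are log2 signals per transcript cluster in a table of 28853 clusters that the authors deposited; no source used here names their background correction, normalization or probe summary. Base 2 is inferred: as natural logs the highest value would mean 2.02e+06, above the 65535 of a 16-bit scanner. Clusters with 1 symbol in the platform annotation of 2016 (21789) were named, 21698 of them through the Entrez identifier in a RefSeq gene table of GRCm38.p6, and the brightest cluster stood for a gene. The 1621 clusters with several symbols and 5443 with none were left out. The values were not normalised again.

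All members are named; pathway lists give their 4 largest differences above the floor and marker lists their 3 largest, with further genes named for their pairing with a member or as defining markers. The floor, the 1.2-fold, 1.5-fold and 2-fold thresholds, the members and the lists were chosen with earlier results of these data known. Members of those lists without a cluster of their own are not analysed here. Alternatives were quantile normalization, lowess and median centring, the mean of clusters, an offset of 32 on the linear scale, 3 other floors and, chosen after seeing the data, leaving out the chromosome of Adam19. The number of arrays limits precision. Python 3.11.15 was used with pandas 2.3.3, numpy 2.4.6, matplotlib 3.10.9 and statsmodels 0.14.6. Only the choice of the brightest cluster and the counts past 1.2-fold were tested on simulated differences.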

Additional observations from a re-analysis of the deposited data

How the results depend on the processing

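The count of 3 members at least 1.2-fold lower held under quantile normalization, lowess centring, median centring, the linear offset of 32, no floor and the floor applied to the higher array, and it was Itga7, Itga8 and Itgb3 each time. Raising the floor to the 75th percentile left 1, Itga8, because Itga7 and Itgb3 were then below the floor. Without chromosome 11 it was 2, Itga7 and Itga8. No member was 1.2-fold higher under any of these settings. The median difference of the members ranged from -0.09 with lowess centring to -0.03 with no floor. Averaging clusters could not move any member, since each has 1. Over the other 4 settings that alter values, Itga7 ranged from -0.65 to -0.54, Itga8 from -0.45 to -0.40 and Itgb3 from -0.32 to -0.26, the last at the 1.2-fold threshold itself. None of the 148 member values under these settings moved by as much as 0.08. That limit is the standard deviation of the gap between a gene's 2 brightest clusters, divided by the square root of 2. Of all genes past 1.2-fold, 78.1% were higher as deposited, 62.3% after quantile normalization and 51.8% with lowess centring. The count of lower genes was 105, 147 and 185 in these settings. It was 403 with no floor and 40 with the floor at the 75th percentile, and the counts of higher genes were 375, 243, 199, 1010 and 95 in the same order. No paired analysis was possible because each genotype had 1 array, and for the same reason no array could be left out.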
